A study of Mus musculus with 23 samples.

Results

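The genes of glycolysis and of the response to low oxygen were described across 23 murine pancreatic ductal adenocarcinoma (PDAC) cell lines. The set was a list of 35 gene symbols, and a gene was taken as measured when a probe set of the array was annotated with its symbol alone. Of the 35 listed genes, 33 were measured, out of 18194 genes with a probe set of their own. Gpi1 and Eno1 had no such probe set and were not analysed here. Gapdh was read only from the manufacturer's control probe sets, so that it has a level but no test, and 32 members entered the tests. A gene with several such probe sets was read from its brightest, by the mean over lines.

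RNA of each line had been hybridised once to an Affymetrix GeneChip array of the mouse genome. The lines had been grown at low passage in DMEM with fetal calf serum at 37°C under 5% CO2, and none had received a drug. The study asked which transcripts go with sensitivity to Bez235, an inhibitor of PI3K and mTOR, and measured for it the IC50, the dose that lowers viability by 50%, which is listed under the same name for 22 of these lines. The 12 lines with the prefix PPT were taken as lines of primary tumours and the 11 lines with the prefixes ASC, B, HEP, HEP2, LN1, PUL and PUL3 as lines of metastases, because the number of PPT names in the study's list of IC50 values, 20 of 35, is the number it gives for primary tumours.

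All 23 lines come from tumours of genetically engineered mice. The Cre recombinase that acts in the pancreas is listed as Ptf1aCre/+ for 10 lines and as Pdx1-Cre for 3 lines, and for the other 10 lines (the 4 ending in 53631, the 3 ending in 15272, HEP-5123, B-5123 and B-152727) the listing used here gives no genotype. A mutant p53 allele (LSL-p53R172H/+) is listed for 6 lines, PPT-3107, PPT-5193, ASC-5193, PPT-5486, PPT-6051 and B-6051. Reporter alleles are listed as well, LSL-R26Tva-lacZ/+ in PPT-3250, PPT-5671, PPT-16992, PPT-17728 and ASC-53909, LSL-PCNA-ATG-fLuc/+ in PPT-3250 and PPT-5671, and LSL-PCNA-IRES-fLuc/+ in PPT-5320 and PPT-5486. Each array is one culture, the number that ends a line's name was read as that of its mouse, and 13 lines come from 5 mouse numbers that gave more than 1 line, so that the mouse and not the line is the independent unit.

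Glycolysis splits glucose to pyruvate in the cytosol, and lactate dehydrogenase turns pyruvate into lactate, which leaves the cell through monocarboxylate transporters. Most steps have several isozymes from different genes. When oxygen is low, the prolyl hydroxylases Egln1 and Egln3 stop marking the alpha subunits of the hypoxia-inducible factor (HIF) for destruction, and the stabilised factor raises transporters, glycolytic enzymes, carbonic anhydrases, Vegfa, Bnip3 and also Egln3 itself. PDAC is known as a poorly perfused tumour.

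HIF binds a short core, ACGTG or GCGTG. Promoter windows of 300 bases (250 before the annotated start and 50 after it; RefSeq, build GRCm38.p6) were given for 32 of the 35 members, and 28 of these held the core on either strand in at least 1 window. Counted by window, it was 36 of 46 member windows (78.3%), against 43.8% of all 32851 windows. The share of all genes with the core was not counted. Windows of a gene can overlap, as for Aldoa and Eno1, so that the same core is counted again. The member list was made in part of HIF targets, and windows were not matched for base composition, so enrichment was not tested. A match of these letters is a description and not a binding site, and where the core reads CACGTG it is also an E-box, the motif of other factors. The windows of 6 members whose levels are turned to below are shown 5′ to 3′, with the core of either strand in capitals. They lie at chr4:43506776-43507075 (plus strand) for Car9, chr7:138909457-138909756 (minus strand) for Bnip3, chr12:54203825-54204124 (minus strand) for Egln3, chr8:45999801-46000100 (minus strand) for Ankrd37, chr10:59323046-59323345 (plus strand) for P4ha1 and chr6:82774405-82774704 (minus strand) for Hk2.
Car9: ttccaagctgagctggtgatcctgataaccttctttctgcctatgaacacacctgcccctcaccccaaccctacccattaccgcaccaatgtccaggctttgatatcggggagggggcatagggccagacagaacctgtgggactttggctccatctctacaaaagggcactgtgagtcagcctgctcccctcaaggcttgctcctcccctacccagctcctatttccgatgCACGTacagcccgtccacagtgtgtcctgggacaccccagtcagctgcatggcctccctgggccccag
Bnip3: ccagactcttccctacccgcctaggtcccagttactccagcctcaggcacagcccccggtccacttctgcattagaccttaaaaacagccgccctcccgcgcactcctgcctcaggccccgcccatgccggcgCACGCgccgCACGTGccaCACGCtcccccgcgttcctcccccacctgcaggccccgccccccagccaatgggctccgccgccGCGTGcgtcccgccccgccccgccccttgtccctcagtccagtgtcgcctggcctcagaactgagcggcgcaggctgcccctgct
Egln3: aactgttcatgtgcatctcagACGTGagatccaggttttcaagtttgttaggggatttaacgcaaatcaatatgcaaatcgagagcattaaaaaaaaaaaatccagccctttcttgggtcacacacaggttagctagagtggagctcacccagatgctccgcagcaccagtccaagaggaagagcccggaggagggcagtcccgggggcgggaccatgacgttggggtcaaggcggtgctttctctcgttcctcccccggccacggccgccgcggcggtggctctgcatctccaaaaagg
Ankrd37: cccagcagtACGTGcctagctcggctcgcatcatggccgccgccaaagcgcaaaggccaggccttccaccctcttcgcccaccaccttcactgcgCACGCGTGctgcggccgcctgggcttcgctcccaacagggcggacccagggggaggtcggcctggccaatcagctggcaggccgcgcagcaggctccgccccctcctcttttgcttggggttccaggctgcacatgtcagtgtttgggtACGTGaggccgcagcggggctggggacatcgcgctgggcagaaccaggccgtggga
P4ha1: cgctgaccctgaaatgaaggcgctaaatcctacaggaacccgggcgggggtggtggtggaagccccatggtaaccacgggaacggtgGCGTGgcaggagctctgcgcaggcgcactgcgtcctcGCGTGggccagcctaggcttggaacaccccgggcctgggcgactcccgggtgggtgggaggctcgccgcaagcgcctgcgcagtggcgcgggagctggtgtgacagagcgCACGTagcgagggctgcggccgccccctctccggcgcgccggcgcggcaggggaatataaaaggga
Hk2: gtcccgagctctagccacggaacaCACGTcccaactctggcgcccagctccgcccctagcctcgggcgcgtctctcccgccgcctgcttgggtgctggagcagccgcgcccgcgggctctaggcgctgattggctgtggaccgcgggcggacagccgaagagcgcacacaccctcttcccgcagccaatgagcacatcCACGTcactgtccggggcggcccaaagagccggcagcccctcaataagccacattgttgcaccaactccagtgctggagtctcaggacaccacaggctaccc
Bnip3 held 5 cores, of which an overlapping pair forms CACGTG, and Ankrd37 held 4. The single core of Car9 begins at -18, counted from the annotated start, and that of Egln3 at -229. Hk2 held 2 cores, and P4ha1 held 3.

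The enzymes of the main glycolytic chain were bright and nearly level over the lines, whereas transporters, regulatory isozymes and HIF targets differed widely. Levels are log2 signals, on which 1 unit is a doubling, and they can be compared between lines but not between probe sets. Over the 23 lines, the SD was 0.22 for Pgk1, 0.23 for Aldoa, 0.24 for Ldha, 0.25 for Gapdh, 0.26 for Pgam1 and 0.28 for Pkm, the last of which makes pyruvate. The median SD of all probe sets was 0.28. Tpi1, also an enzyme of this chain, lay above that median with an SD of 0.32 (11.12 to 12.51). At the other end, 7 of the 33 members had an SD over 1, which 6.24% of all probe sets had. They were Car9 (1.59), Slc2a3 (1.38), Egln3 (1.35), Aldoc (1.24), Epas1 (1.22), Hk2 (1.08) and Car12 (1.04). The annotation gives 1 probe set for Pkm and does not tell its M1 and M2 splice forms apart, so the choice between them was not analysed here.

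**Figure D1:**
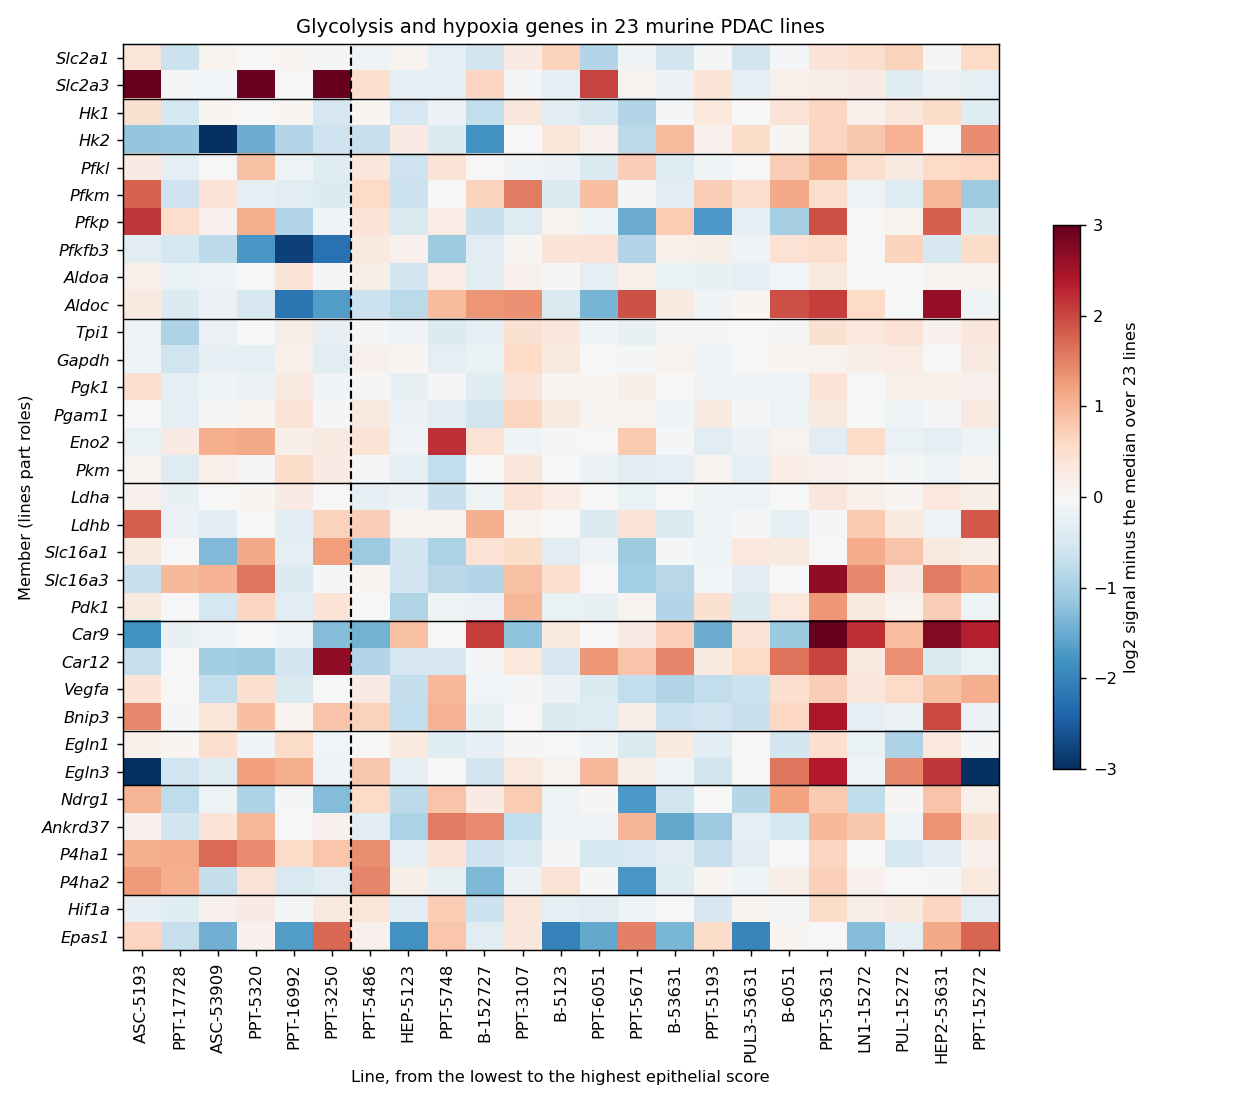
Log2 signal of 33 members minus the median over 23 lines (colour, cut at 3), with the lines from the lowest to the highest epithelial score and horizontal rules between roles; the dashed line marks the widest gap in the score. Rows such as Aldoa, Pgk1 and Ldha are pale throughout, and Car9, Egln3, Slc2a3, Aldoc and Hk2 hold the strongest colours.

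Glucose enters through Slc2a1 (GLUT1) and Slc2a3 (GLUT3, a high-affinity transporter best known from neurons). Slc2a1 was bright in every line, from 9.51 in PPT-6051 through a median of 10.39 to 11.08 in PUL-15272. Slc2a3 ranged from 2.58 to 7.38 with a median of 2.95, and exceeded 3.77, the median signal of all probe sets and lines, in 4 lines, with 7.38 in PPT-3250, 6.84 in ASC-5193, 5.91 in PPT-5320 and 4.98 in PPT-6051. The other 19 lines lay between 2.58 and 3.6. A further probe set of Slc2a3 was also high in these 4 lines (7.85, 6.96, 6.69 and 5.28) and read 4.56 in PPT-5486, while the remaining 2 had means of 2.45 and 2.73 and stayed dim. Both bright ones belong to the classes of probe sets (suffixes _x_at and _s_at) that can match more than 1 transcript.

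Hexokinase traps glucose in the cell as its phosphate. Hk1, the broadly expressed form, spanned 8.42 to 9.94 (median 9.30). Hk2, the inducible form, spanned 6.28 in ASC-53909 to 11.03 in PPT-15272 (median 9.62), and the next lowest line, B-152727, had 7.81. After centring each gene on its median, Hk2 minus Hk1 ran from -3.41 in ASC-53909 to 1.78 in PPT-15272, a range of 5.19 or 36.5-fold.

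Phosphofructokinase commits sugar to glycolysis, and Pfkfb3 makes its strongest activator, fructose-2,6-bisphosphate. Pfkl and Pfkm had SDs of 0.47 and 0.75. Pfkp, the platelet-type subunit, was the most variable of the 3, from 5.89 in PPT-5193 to 9.76 in ASC-5193, which are lines of the same mouse, with 9.56 in PPT-53631 and 9.41 in HEP2-53631. Pfkp minus Pfkl ranged over 4.13 log2 units and Pfkm minus Pfkl over 3.38. Pfkfb3 had a median of 5.39 and was lowest in PPT-16992 (2.58), PPT-3250 (3.14) and PPT-5320 (3.64).

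The aldolases differed in the same way. Aldoa spanned 11.60 to 12.56, and Aldoc, the brain-type form, spanned 4.36 in PPT-16992 to 9.17 in HEP2-53631 (median 6.55). Eno2, the neuronal enolase, was above 3.77 in 1 line, PPT-5748, at 4.5. With Eno1 not measured alone, no enolase pair was formed.

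At the end of the pathway, Ldha, which favours lactate formation, stayed between 11.47 and 12.53. Ldhb, which favours the use of lactate, had a median of 5.46 and was highest in PPT-15272 (7.30) and ASC-5193 (7.26), with 6.52 in the next line. All 4 probe sets of Ldhb had these 2 lines as their highest, and on the most variable of them the values were 7.10 and 7.29 against a median of 2.72. The Ldhb minus Ldha range of 2.25 on the chosen probe sets became 6.25 on the most variable ones. As the median of that Ldhb probe set lies below 3.77, the wider range gives no sure fold. Slc16a1 (MCT1) was bright throughout, from 9.27 to 11.84, and Slc16a3 (MCT4, the lactate exporter of glycolytic cells) reached 6.0 in PPT-53631 against a median of 3.35. Pdk1, which holds pyruvate out of the mitochondria by inhibiting pyruvate dehydrogenase, spanned 7.42 to 9.62.

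Of the HIF subunits, Hif1a differed little between lines (9.95 to 11.36, SD 0.37). Epas1, which encodes HIF-2 alpha, spanned 3.81 in B-5123 to 7.58 in PPT-15272 with a median of 5.84. Epas1 minus Hif1a ranged over 4.16 log2 units, from -2.07 in PUL3-53631 to 2.09 in PPT-15272.

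Egln3, a hydroxylase that is itself a HIF target, was low in 2 lines only, at 4.26 in PPT-15272 and 4.40 in ASC-5193. The other 21 lines lay between 6.90 and 9.89. The second Egln3 probe set had the same pair of lines at the bottom, with 3.43 and 3.13 against a median of 5.38. These are also the lines with the highest Ldhb. Egln1, the other hydroxylase among the members, was 8.54 and 8.75 there and spanned 7.67 to 9.14 over all lines, so that Egln3 minus Egln1 was -3.18 and -3.25. The lines LN1-15272 and PUL-15272, from the mouse of PPT-15272, had Egln3 at 7.37 and 8.94, which is 8.63-fold and 25.6-fold above that line, and PPT-5193, from the mouse of ASC-5193, had 6.94, 5.82-fold above it. ASC-5193 stands apart in its keratins as well, with Krt8 at 3.44, Krt18 at 2.46 and Krt19 at 2.87 where the other lines had at least 7.53, 6.01 and 6.89. PPT-15272 is among those other lines. The part of the low keratins in the values of ASC-5193 was not tested.

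Several HIF targets were highest in PPT-53631. This line held the highest value of 7 of the 33 members, Hk1 and Pfkl among them, and was among the 3 highest for 17. HEP2-53631, from the same mouse, was among the 3 highest for 12. How often these lines rank so high over all probe sets was not counted, so these counts have no background beside them. Car9, a carbonic anhydrase at the cell surface and a standard marker of hypoxia, spanned 2.22 in ASC-5193 to 8.77 in PPT-53631 with a median of 4.04, and HEP2-53631 followed with 6.79. Bnip3, a receptor for mitophagy, was 10.98 in PPT-53631 and 10.5 in HEP2-53631, above the 7.78 to 9.95 of the other 21 lines. Egln3 was 9.89 and 9.65 in the same lines. The other lines of this mouse, PUL3-53631 and B-53631, lay below both, with Bnip3 at 7.83 and 7.87, next to the lowest line of all, Slc16a3 at 3.02 and 2.51, below its median, and Car9 at 4.43 and 4.75, above its median.

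Set against PPT-53631, PUL3-53631 and B-53631 were each lower by more than 1 log2 unit in 13 of 33 members and higher by as much in 0. Over all probe sets, 1.57% were lower by as much in PUL3-53631 and 2.85% in B-53631 (2.6% and 4.8% of those with a mean above 3.77), and 0.517% and 1.19% were higher. PPT-53631 is taken here as the primary tumour line of the mouse, but as it holds the highest value of 7 members, those members could only be lower in the others. It was among the 3 highest for 17 members, and the line is described here because of these ranks. The counts of 13 and 0 therefore follow in part from that choice. The shares of all probe sets carry no such choice and are not a like background. Car9 was 20.3-fold and 16.2-fold lower and Bnip3 8.88-fold and 8.63-fold. Slc16a3 was also lower by more than 1 in both, at values below 3.77 that give no sure fold. Aldoc, Pdk1, Vegfa, Egln3, Ndrg1, Ankrd37, Pfkl, Pfkp and Epas1 were among those lower by more than 1 in both. Hk2 in these lines lay within 0.31 of PPT-53631 and did not share the pattern. HEP2-53631 differed by more than 1 in 5 members, of which 4 were lower and 1 higher, against 1.31% and 1.47% of all probe sets. With 1 array per line these differences have no replicate and no test.

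**Figure D2:**
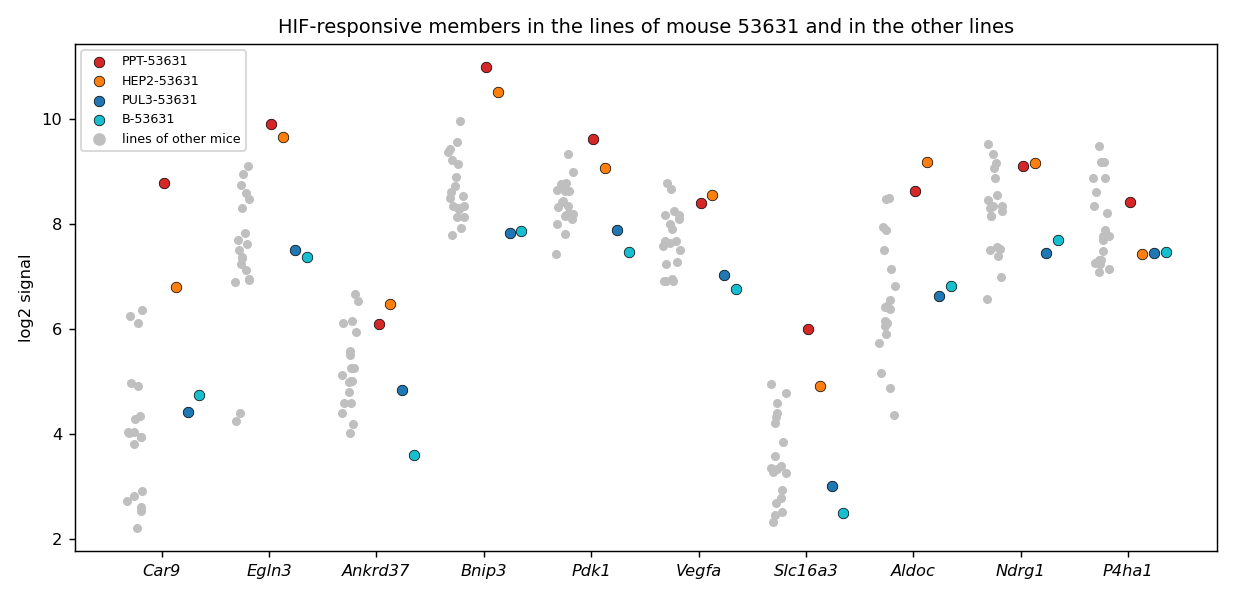
Log2 signal of 10 HIF-responsive members in the 4 lines of mouse 53631 (coloured) and in the 19 lines of other mice (grey). PPT-53631 and HEP2-53631 lie at or near the top for Car9, Egln3, Bnip3, Pdk1 and Aldoc, and PUL3-53631 and B-53631 in the lower part for Bnip3, Pdk1 and Slc16a3.

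Over all lines, the HIF targets were related to one another to different degrees. As a description over 23 lines, some of which share a mouse, the Spearman rho was 0.608 for Vegfa with Bnip3, 0.60 for Pdk1 with Bnip3 and 0.562 for Bnip3 with Ankrd37, and for Car9 it was 0.398 with Ankrd37, 0.246 with Vegfa, 0.206 with Egln3, -0.129 with Pdk1 and -0.176 with Bnip3. The highest values of all 528 pairs of members were within glycolysis, with 0.842 for Tpi1 with Gapdh, 0.838 for Tpi1 with Ldha and 0.726 for Hk2 with Pfkfb3. Among 18161 genes outside the list, those most like Ankrd37 were Rbl2 (0.792), Hectd2 (0.769), Bbc3 (0.766), Zfp954, Parp14, Sspo, Pard6a, Chdh, Zfp110 and Oas1c (0.701). Those most like Car9 were Upk3bl (0.832), Dcxr (0.829), Cyb561 (0.826), Theg, Csf3, Spns3, Cracr2b, 1700007K13Rik, Ikbke and Noxo1 (0.789). No gene is on both lists. Hectd2, Chdh, Oas1c and Theg had means below 3.77 (2.10, 2.86, 3.12 and 2.03), where the order of lines is uncertain.

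Epithelial-mesenchymal state was measured by an epithelial score, the mean centred signal of 10 epithelial genes (such as Cdh1 and Epcam) minus that of 9 mesenchymal genes (such as Zeb1, Sparc, Fn1 and Col1a2). It ran from -5.59 in ASC-5193 to 3.84 in PPT-15272 and had a gap of 2.48 between 6 lines at -3.92 or less and 17 lines at -1.44 or more. Slopes are log2 units per unit of score, from limma with the mouse as a random block and Benjamini-Hochberg adjustment over 45037 probe sets. As markers of other cells, Ptprc, Itgam, Pecam1, Cdh5, Cpa1, Ptf1a, Gcg and Chga were below 3.77 in every line, and the other 5 listed (Cd68, Cd3e, Kdr, Cela1 and Ins2) were above it in 20 to 23 lines. The 3′ and 5′ control probe sets of Gapdh, a sign of RNA integrity, differed by -0.08 to 0.07.

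With the score, 4 of 32 members changed (12.5%), where 11.4% of all probe sets did, so the share is near that background. Members were read from their brightest probe sets. In a fit of only the probe sets with a mean above the median, 4454 of 22518 were called, a larger share than either. Of the 4 called members, 2 rose with the epithelial score (5.34% of all probe sets did) and 2 fell (6.02%). The slopes of Hk2 and Pfkfb3 were positive and those of P4ha1 and Slc2a3 negative. Hk2 rose by 0.28 per unit (SE 0.05, adjusted p = 0.00132), which over the whole range of the score is 6.22-fold. Pfkfb3 rose by 0.21 (SE 0.05, adjusted p = 0.0146). P4ha1, a subunit of the enzyme that hydroxylates collagen, spanned 7.08 in PPT-5193 to 9.47 in ASC-53909 (median 7.77) and fell by 0.22 (SE 0.04, adjusted p = 0.000602), 4.13-fold over the range. Its other probe set fell too (-0.183, SE 0.0403, adjusted p = 0.00407). ASC-53909, with the highest P4ha1, also had the highest Col1a2, a collagen gene that fibroblasts share, at 13.27 against a median of 4.6. Col1a2 is one of the mesenchymal genes of the score, so this value also lowers the score of that line. The part of Col1a2 in the P4ha1 value and slope was not tested.

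Slc2a3 fell by 0.28 per unit (SE 0.09, adjusted p = 0.0411). The call was lost when any of 8 mice was left out (those of PPT-15272, PPT-3107, PPT-3250, HEP-5123, PPT-5193, PPT-5320, PPT-53631 and PPT-5671), with an adjusted p of up to 0.226. Of the 6 lines below the gap, 3 had Slc2a3 above 5.9 and 3 had 2.95 or less. A dim probe set of the gene had a slope of the other sign (0.00526, SE 0.0202). At an unadjusted p under 0.05, 8 of 32 members passed (25.2% of all probe sets did), the other 4 being Tpi1 (slope 0.06, SE 0.02, adjusted p = 0.0944), Aldoc (0.21, SE 0.09, adjusted p = 0.137), Car9 (0.24, SE 0.11, adjusted p = 0.151) and Egln1 (-0.05, SE 0.03, adjusted p = 0.195). The slopes of the remaining 24 members lay between -0.13 and 0.11.

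**Figure D3:**
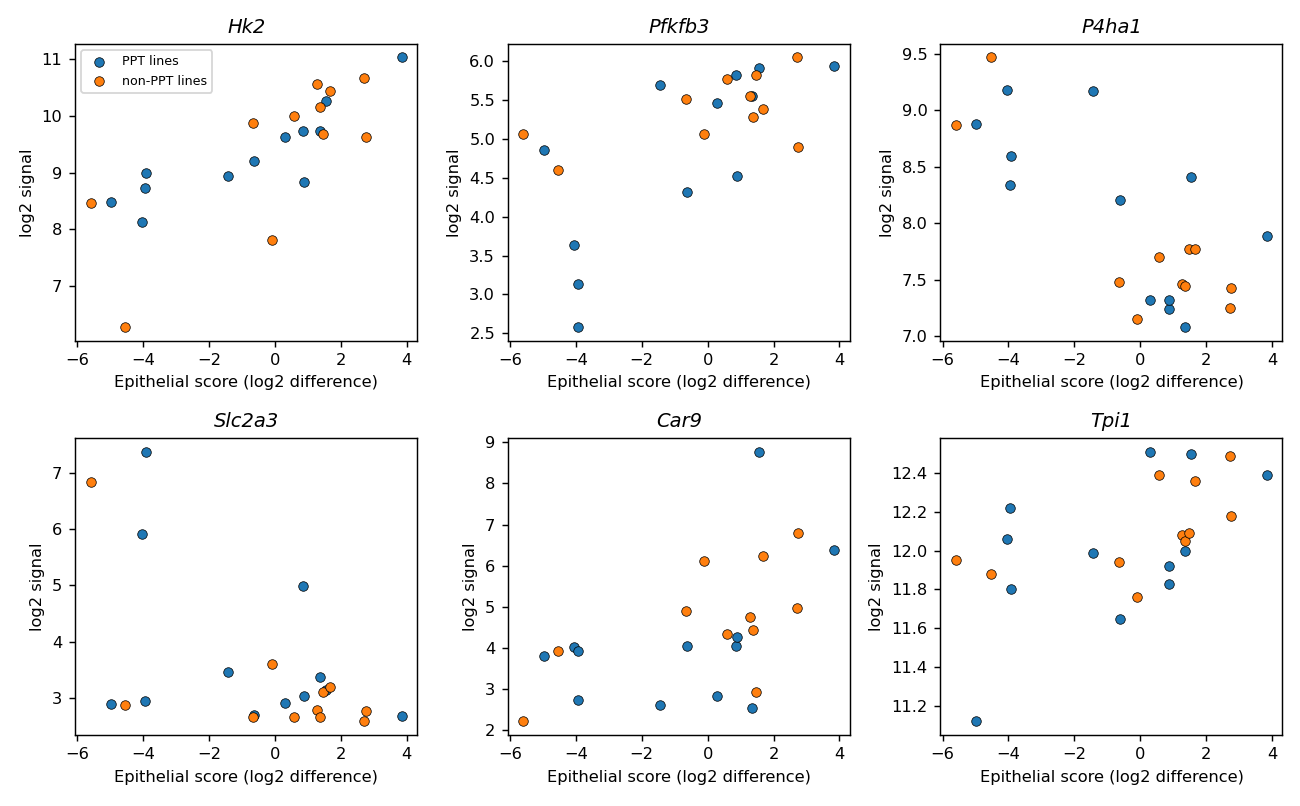
Log2 signal of 6 members against the epithelial score, 1 point per line (PPT lines blue, non-PPT lines orange). Hk2 spans 6.28 (ASC-53909) to 11.03 (PPT-15272, the highest score) and P4ha1 9.47 (ASC-53909) to 7.08 (PPT-5193), while Slc2a3 is above 3.77 in 4 lines.

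As the scores fall into separate clusters, the slopes were also taken within each. Among the 17 lines above the gap, 5 of 32 members had an unadjusted p under 0.05 (8.48% of all probe sets) and 0 passed after adjustment by limma, where 0.0155% of all probe sets did. The Hk2 slope there was 0.34 (SE 0.11, adjusted p = 0.374), close to that over all lines. P4ha1 had -0.14 (SE 0.10, adjusted p = 0.767), Pfkfb3 0.11 (SE 0.09, adjusted p = 0.816) and Slc2a3 -0.10 (SE 0.11, adjusted p = 0.881). In the 6 lines below the gap 0 members passed after adjustment by limma (0.00444% of all probe sets) and 7 had an unadjusted p under 0.05 (7.33%). There, Pfkfb3 had the other sign, with a slope of -1.35 (SE 0.28, adjusted p = 0.476), and so did Aldoc (-1.11, SE 0.35, adjusted p = 0.608). Egln3 had the smallest p of the members there, with a slope of 2.10 (SE 0.40, adjusted p = 0.454), against -0.11 above the gap (SE 0.25, adjusted p = 0.952). The negative sign above the gap rests on PPT-15272. Without that line, a choice made after seeing the data, the Egln3 slope there was 0.39 (SE 0.19, adjusted p = 0.45 by limma).

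Between the 11 non-PPT and the 12 PPT lines, 0 of 32 members passed after adjustment by limma, as did 0% of all probe sets. Before adjustment 2 members passed (6.25%), against 4.07% of all probe sets, both lower in the non-PPT lines. Epas1 had a median of 4.54 (3.81 to 6.98) in the non-PPT lines and of 6.08 (4.16 to 7.58) in the PPT lines, with a difference of -0.95 (SE 0.45, adjusted p = 0.999). The groups overlap over most of their range. A dim second probe set of Epas1 had a difference of 0.0301 (SE 0.134). Pgam1 had a median of 10.77 against 11.03, with a difference of -0.26 (SE 0.10, adjusted p = 0.999). Differences of the other 30 members lay between -0.46 and 0.54.

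Within single mice, Epas1 showed both directions. LN1-15272 and PUL-15272 were 8.22-fold and 4.03-fold below PPT-15272, and PUL3-53631 and B-53631 were 3.97-fold and 2.58-fold below PPT-53631, whereas HEP2-53631 was 2.2-fold and B-6051 was 3.03-fold above the PPT line of their mouse. Pgam1 was lower in each of the 7 non-PPT lines that have a PPT line of the same mouse here, by 0.25 to 0.41 log2 units, but these share 4 PPT arrays, so the 7 differences are not independent. B-6051 had 10.1-fold more Aldoc than PPT-6051, and Slc2a3 was 6.84 in ASC-5193 and 3.37, below the median of all values, in PPT-5193.

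Against the Bez235 IC50 of 22 lines, taken as a continuous measure, 0 of 32 members passed after adjustment by limma, as did 0% of all probe sets. Slopes are log2 units per doubling of the IC50, and 3 members (9.38%) had an unadjusted p under 0.05, against 5.68% of all probe sets. Egln3 had -1.05 (SE 0.32, adjusted p = 0.805), Car12 -0.64 (SE 0.26, adjusted p = 0.825) and Ldhb 0.47 (SE 0.14, adjusted p = 0.805). All 4 probe sets of Ldhb had positive slopes, of 0.468 to 1.31, and both of Egln3 negative ones. The lines PPT-15272 and ASC-5193, with the lowest Egln3 and the highest Ldhb, enter both slopes. Without ASC-5193 the slopes were -0.80 for Egln3 (SE 0.38, p = 0.0451 before adjustment by limma) and 0.27 for Ldhb (SE 0.15, p = 0.0904 before adjustment by limma). Slopes of the remaining 29 members lay between -0.65 and 0.23.

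**Figure D4:**
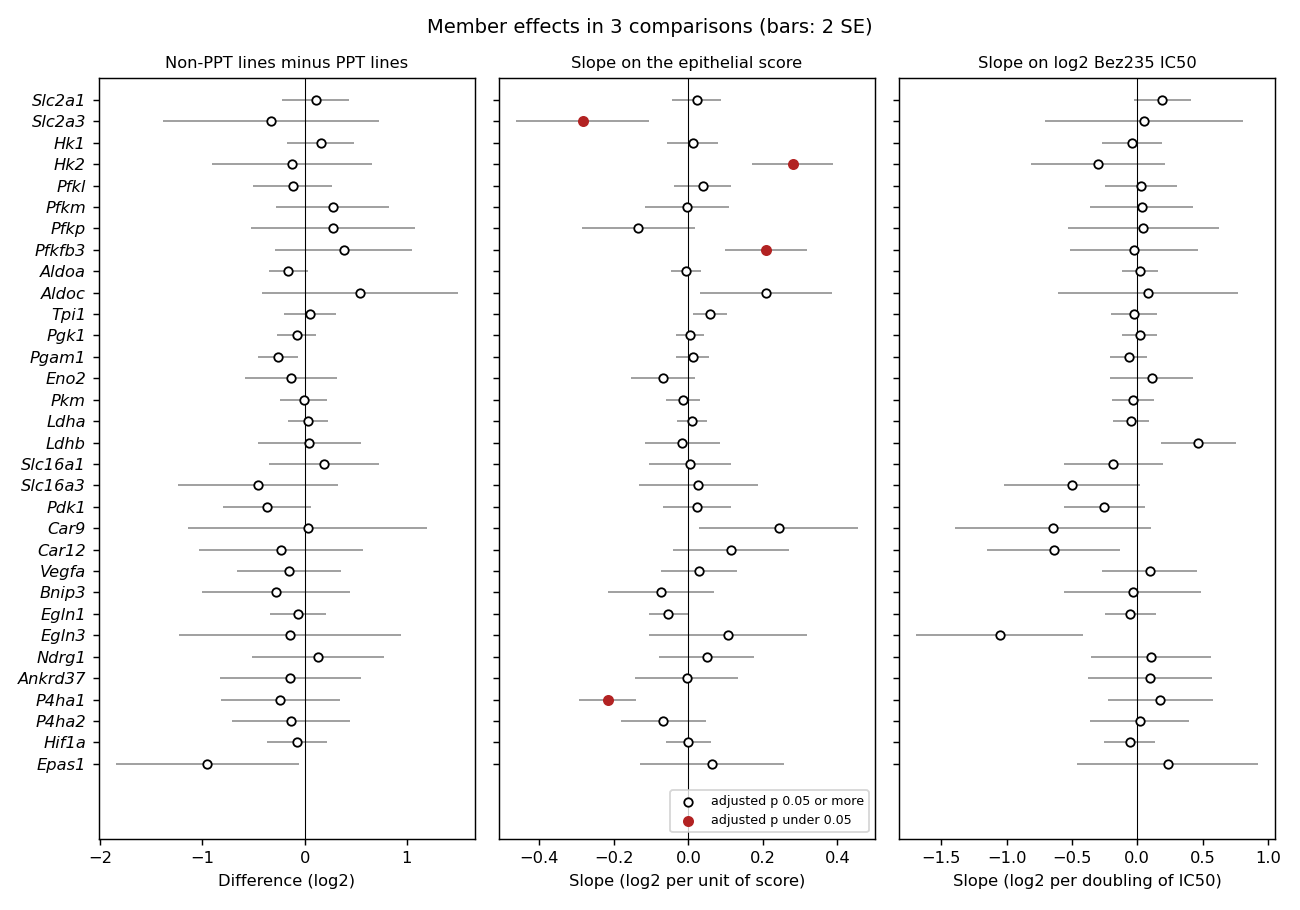
Effect of 32 members in 3 comparisons with bars of 2 SE: the difference of non-PPT and PPT lines, the slope on the epithelial score and the slope per doubling of the Bez235 IC50. Filled points, with an adjusted p under 0.05, are Slc2a3, Hk2, Pfkfb3 and P4ha1 in the middle panel, and there are none in the other panels.

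Further genes of the pathways were counted from lists, whose counts of 0 to 2 called genes in either direction stand beside the 11.4% of all probe sets that were called with the score (5.34% rising and 6.02% falling). Of 21 measured HIF targets outside the member list, 2 fell with the epithelial score and 0 rose, namely Lox (-0.68, SE 0.17, adjusted p = 0.0099), which crosslinks collagen, and Plod1 (-0.15, SE 0.05, adjusted p = 0.0428), which hydroxylates its lysines. The list's median slope was -0.03. The related Plod2 had a slope of -0.19 (SE 0.09, adjusted p = 0.166), and the member P4ha2 one of -0.07 (SE 0.06, adjusted p = 0.508). The score itself holds the matrix genes Col1a2, Fn1 and Sparc, and their part in the slopes of collagen-processing genes was not tested. Of 6 genes of oxygen sensing and HIF partnership, Arnt, the beta subunit of HIF, fell (-0.10, SE 0.03, adjusted p = 0.0322) and Hif3a rose (0.06, SE 0.02, adjusted p = 0.0386). Of 12 other glycolytic isozymes 2 rose, Pklr, the liver-type pyruvate kinase (0.30, SE 0.07, adjusted p = 0.00622), and Gapdhs, known from sperm (0.09, SE 0.02, adjusted p = 0.000614). Of 9 genes of pyruvate entry into mitochondria 2 fell, Pdhb (-0.07, SE 0.02, adjusted p = 0.0354) and Pdk3 (-0.15, SE 0.05, adjusted p = 0.0475). None of 4 regulators of Pkm splicing passed, with 0 also at an unadjusted p under 0.05. By site and by IC50, 0 genes of any of these lists passed after adjustment by limma, with 5 and 1 before it.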

How the data were processed

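RNA of 23 lines was measured with 1 array per line. The authors deposited log2 values per probe set. VSN is given in the supplementary methods and RMA in the submitters' processing notes, so the normalization is not settled, and no version is given in the sources used here. The values were used without a second normalization or filter. Of 45101 probe sets, 64 controls were left out of the tests. The platform's annotation gives a single symbol for 34945 of the others, which alone were named, several symbols for 932 and none for 9160. Array medians ran from 3.58 to 3.90, and no arrays were identical. The number of arrays limits the precision, as each line is 1 culture.

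Fits were made with limma 3.58.1 in R 4.3.3 (lmFit, eBayes, adjusted p threshold 0.05) on all 45037 other probe sets, with the mouse number in the line name as a random block (estimated correlation 0.278 by site, 0.253 for the score and 0.315 for the IC50). Centred arrays of the same mouse number had a median correlation of 0.444 over 12 pairs, against -0.0819 over 241 others. The pairing comes from the line names. B-152727 kept its own number. An allele of these mice is not reported here. IC50 values came from the study's supplement and entered only as a covariate. The fits were tested on simulated data with changes of known size over the range of each measure. Of 50 changes of 1 log2 unit, 38 were recovered by site, 27 for the score and 13 for the IC50. Of 50 changes of 2 log2 units, 50, 42 and 44 were recovered. Smaller effects can thus be missed, above all by IC50. Named with an effect and error were members with an adjusted p under 0.05 or, where these were under 5, with an unadjusted p under 0.05. Lists held markers, other HIF targets, HIF partners, isozymes, mitochondrial pyruvate genes and Pkm splicing regulators. Members and lists were chosen with earlier results of these data known. Tables and figures used Python 3.11.15 and matplotlib 3.10.9.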

Additional observations from a re-analysis of the deposited data

How the results depend on the processing

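By site and by IC50, no setting called any member. Leaving out single mice gave 0 called probe sets by site and 0 to 1 by IC50, the 1 being without the mouse of PPT-15272. For the score, leaving out single mice gave 3729 to 5195 called probe sets and 3 to 4 called members. With the epithelial genes alone, 2828 probe sets and 2 members were called. Among the 17 lines above the gap the numbers were 7 and 0, and without PPT-15272, chosen after seeing the data, 15 and 0. In the 6 lines below it, also chosen after seeing the data, they were 2 and 0, with reversed slopes for Pfkfb3 (-1.35) and Aldoc (-1.11). Fewer lines enter these fits. Hk2, Pfkfb3 and P4ha1 passed each time a mouse was left out, with adjusted p up to 0.0122, 0.0495 and 0.00441. Without the replicate block 5 members were called for the score, the added one being Tpi1 (adjusted p = 0.0425), which also passed after quantile normalization (adjusted p = 0.00674). The block changed no other call of a member. Without the 2 lines farthest from the median IC50, the Egln3 slope was -0.61 (p = 0.188 before adjustment by limma). Signals below 3.77, the median of all values, limit Eno2 (22 lines), Slc2a3 (19), Slc16a3 (14), Car12 (9), Car9 (6), Pfkfb3 (3) and Ankrd37 (1).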
